A study of Mus musculus with 3 samples.

Results

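Among 4668 single cells from 4 mouse brains, 87 cells formed a set marked by RNA of blood cell precursors that normally sit in bone marrow, although not every cell carried such RNA. They were chosen by their gene expression values inside the authors' cluster 6, a group of 223 cells that also held cells rich in neutrophil granule RNA. A cell was taken when its summed level of the neutrophil granule genes Camp, Ngp, Ltf, S100a8 and S100a9 was below 100 per 10000 unique molecular identifiers (UMIs, the counted RNA molecules) and when at most 1 of the T cell receptor complex genes Cd3d, Cd3e, Cd3g, Trac and Trbc2 was detected. The other cells of the cluster were 108 with a granule sum of 100 or more, called neutrophils here whatever their maturity. A further 28 had 2 or more T cell receptor genes, and 20 of them were under the granule limit. The median granule sum was 6.44 in the precursor cells and 1855 in the neutrophils. The 3 precursor cells closest to the limit had sums of 77.7, 60.9 and 56.1, and the 3 closest neutrophils had 126.4, 129.7 and 130.6. Of the precursor cells, 14 had exactly 1 T cell receptor gene, and 5 cells of the cluster were left out with exactly 2. Because expression values made both the clusters and these limits, gene levels below are descriptions without tests, and the antibody tags are the independent readout.

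The study compared the immune cells of normal brains with those of brains in which E0771 cells, a mouse mammary carcinoma line, had formed metastases after injection into the carotid artery. All mice were female C57BL/6 of 2 to 3 months, and tumour-bearing brains were taken about 2 weeks after injection. The cell suspensions were enriched on a Percoll gradient, and each brain was stained with antibodies to 6 surface proteins and with a hashtag antibody of its own, all carrying DNA barcodes, before the 4 brains were pooled into 1 droplet run that gave an RNA, an antibody tag and a hashtag library. The sources used here do not say which hashtag marked a normal or a metastatic brain, so brains are named by hashtag and normal and metastatic brains are not compared.

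Neutrophil granulocytes, B lymphocytes and red blood cells all arise from blood stem cells in the marrow. Granulocyte precursors first make the proteases and myeloperoxidase of azurophil (primary) granules and switch to the proteins of specific and gelatinase granules as they mature. B precursors make a surrogate light chain from the Vpreb and Igll1 genes before they have a complete antigen receptor, and erythroid precursors switch on the factors Gata1 and Klf1, then globins, while losing the leukocyte surface protein CD45, which is the product of Ptprc.

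All 4668 cells were present in both the RNA and the tag tables. A cell had 2495 to 43038 UMIs with a median of 9472. The precursor cells were shallow, with a median of 3522 UMIs, against 3882 in the neutrophils, 3815 in cluster 3 (404 immune cells, 94.3% of them with 3 or more of 9 microglia and macrophage genes) and 7282.5 in cluster 1 (880 choroid plexus cells, which make transthyretin, Ttr). Cluster 1 serves as an approximate background of free RNA for blood cell genes. Of its cells 61 had a CD45 tag count of 300 or more, and the part of immune cells in its values was not tested. Ttr was seen in every precursor cell at a median of 116 per 10000, close to the 117 of neutrophils and far below the 3371 of cluster 1. Ttr was above 500 in 5 precursor cells and above 3000 in 2 of them. The share of mitochondrial UMIs had a median of 2.84% in the precursor cells and 2.08% in the neutrophils. No doublet caller was run. As a check on mixed droplets, the cell's own hashtag made up at least 80% of its hashtag counts in 75 of the 87 cells.

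Nearly all precursor cells came from 1 brain. The hashtag 1 brain held 75 of them, 8.89% of its 844 cells (exact 95% binomial interval 7.05 to 11.0%). The hashtag 2 brain held 2 of 410 cells (0.488%, 0.0591 to 1.75%), the hashtag 3 brain 6 of 1385 (0.433%, 0.159 to 0.941%) and the hashtag 4 brain 4 of 2029 (0.197%, 0.0537 to 0.504%). As a share of the immune cells of clusters 3 and 6, the brains gave 39.1%, 4.65%, 3.31% and 1.90% in the same order. For both denominators the interval of the hashtag 1 brain lay above the other intervals. As a share of cluster 6 the values were 43.9% (36.3 to 51.6%), 22.2% (2.81 to 60.0%), 23.1% (8.97 to 43.6%) and 23.5% (6.81 to 49.9%), and there the intervals overlapped. These intervals cover counting error only, and with 1 suspension per brain nothing shows how far such a share would vary between preparations. The hashtag 1 brain held 87 of the 108 neutrophils as well. The brains also differed in depth, with median UMIs per cell of 4370.5, 5599.5, 12450 and 12806 for hashtags 1 to 4, and in choroid plexus cells, which were 291 of 844, 206 of 410, 181 of 1385 and 202 of 2029 cells. The part of these differences in the share of precursor cells was not tested.

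Most but not all hashtag calls in that brain were clear. Of its 75 precursor cells, 64 passed the 80% check, as did all 2, 5 of the 6 and all 4 in the other brains. The hashtag 1 antibody also left a median count of 33 in cells of the other brains, against 12, 16 and 31 for hashtags 2, 3 and 4, and 11 precursor cells had fewer than 350 hashtag counts in all. The part of this background in the assignment of single cells was not tested.

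**Figure D1:**
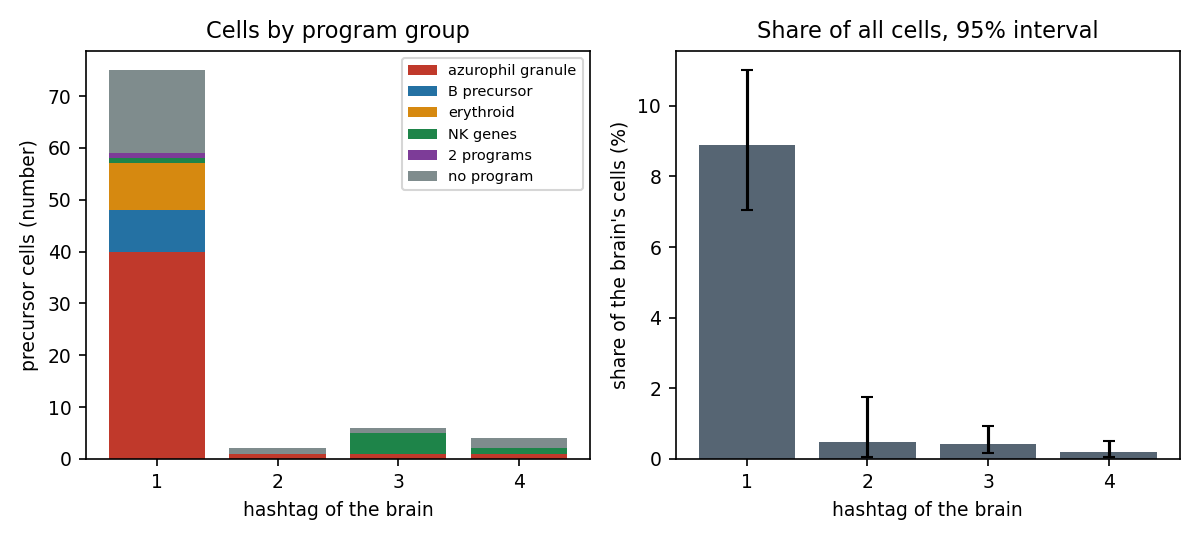
Number of precursor cells in each brain by gene program (left) and their share of all cells of the brain with exact 95% binomial intervals (right), by hashtag. The hashtag 1 brain held 75 of 87 cells and every cell of the B precursor group and of the erythroid group by the narrow list.

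The markers of the marrow-like label were present in part of the cells only. Levels below are UMIs of a gene per 10000 UMIs summed over the cells named, with exact 95% Poisson intervals for counting error. Mpo, which encodes myeloperoxidase, was at 10.4 in the precursor cells (9.40 to 11.6), 2.33 in neutrophils and 0.0227 in cluster 1. By hashtag from 1 to 4 its level was 11.1, 22.1, 7.73 and 0, where 3 UMIs in the last brain would be 1.51. Elane, which encodes neutrophil elastase, was at 15.3 (14.0 to 16.6) and by hashtag at 16.3, 8.50, 16.0 and 0, with 10.1 in neutrophils. Ctsg, which encodes the granule protease cathepsin G, was at 10.8 and by hashtag at 10.9, 8.50, 14.9 and 6.04, with 1.80 in neutrophils. The 3 genes were therefore present outside the hashtag 1 brain, but there they rested on 1 or 2 cells per brain.

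The other markers were confined to fewer cells. Vpreb3, a component of the B precursor receptor pathway, was at 0.941 (0.648 to 1.32), with all 33 UMIs in 8 cells of the hashtag 1 brain and a neutrophil level of 0.348. Hba-a1, which encodes alpha globin, was at 16.6 (15.3 to 18.0), and by hashtag at 18.9, 0, 1.10 and 1.01. It was detected in 29 of 87 cells (33.3%) and in 39.5% of the deeper cluster 1 cells. With every cell thinned to 2495 UMIs, it was detected in 26.4% of precursor cells, 25% of neutrophils, 16.1% of cluster 3 and 14.9% of cluster 1, so many cells outside the erythroid lineage carried some of it. The neutrophil level of Hba-a1 was 3.99, and 150 of its 195 UMIs were in 1 cell.

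The precursor cells were divided by how many genes of a list they expressed, at 3 or more genes of 8 azurophil granule genes, of 15 measured B precursor genes or of 19 measured erythroid genes. The azurophil program was present in 44 of 87 cells, 50.6% (39.6 to 61.5%), against 24 of 108 neutrophils (22.2%), 3 of 404 cells of cluster 3 (0.743%) and 1 of 880 cells of cluster 1 (0.114%). The B precursor program was present in 9 cells, 10.3% (4.84 to 18.7%), against 3 of 108 neutrophils (2.78%), 18 of 404 cells of cluster 3 (4.46%, 2.66 to 6.95%) and 1.36% of cluster 1. The full erythroid list was met by 26 precursor cells (29.9%), 25% of neutrophils, 27.0% of cluster 3 and 58.1% of cluster 1, whose cells were deeper. With every cell thinned to 2495 UMIs, the azurophil shares were 47.1% in precursor cells, 17.6% in neutrophils, 0.248% in cluster 3 and 0 of 880 in cluster 1. In the same order the thinned B precursor shares were 9.20%, 1.85%, 2.23% and 0.227%, and the thinned erythroid shares 21.8%, 13.9%, 10.6% and 10.2%. At equal depth each program was thus more frequent in the precursor cells, and the full erythroid list was met by more than 10% of each kind of reference cell.

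Because Car2 and globin RNA were also found in cluster 1, a narrower erythroid list was added after the data had been seen. It held the 8 erythroid genes detected in under 1% of cluster 1 cells (among them Car1, Klf1, Gata1, Ermap, Slc4a1, Epor and Cldn13). The narrow list was met by 9 precursor cells and by no neutrophil or cluster 3 cell. It was met by 0 of 880 cells of cluster 1, which at 3 counts allows a share of up to 0.341%. Its genes were chosen as rare in those same cells, so the cluster 1 count is not an independent background. With NK cell genes (3 or more of 6) treated alike, the 87 cells fell into 43 azurophil, 8 B precursor, 9 erythroid and 6 NK gene cells, 1 cell with both the azurophil and the B program, and 20 with no program. These groups are ranges of a gene count and not cell types. For the azurophil list 8 cells had exactly 2 genes and 14 exactly 3, so that group had a broad edge, while for the B list 1 cell had 2 and 1 had 3, and for the narrow erythroid list none had 2 and 1 had 3. In the hashtag 1 brain the groups held 40, 8, 9, 1, 1 and 16 cells. Outside it, the 12 precursor cells were 3 azurophil, 5 NK gene and 4 with no program.

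**Figure D2:**
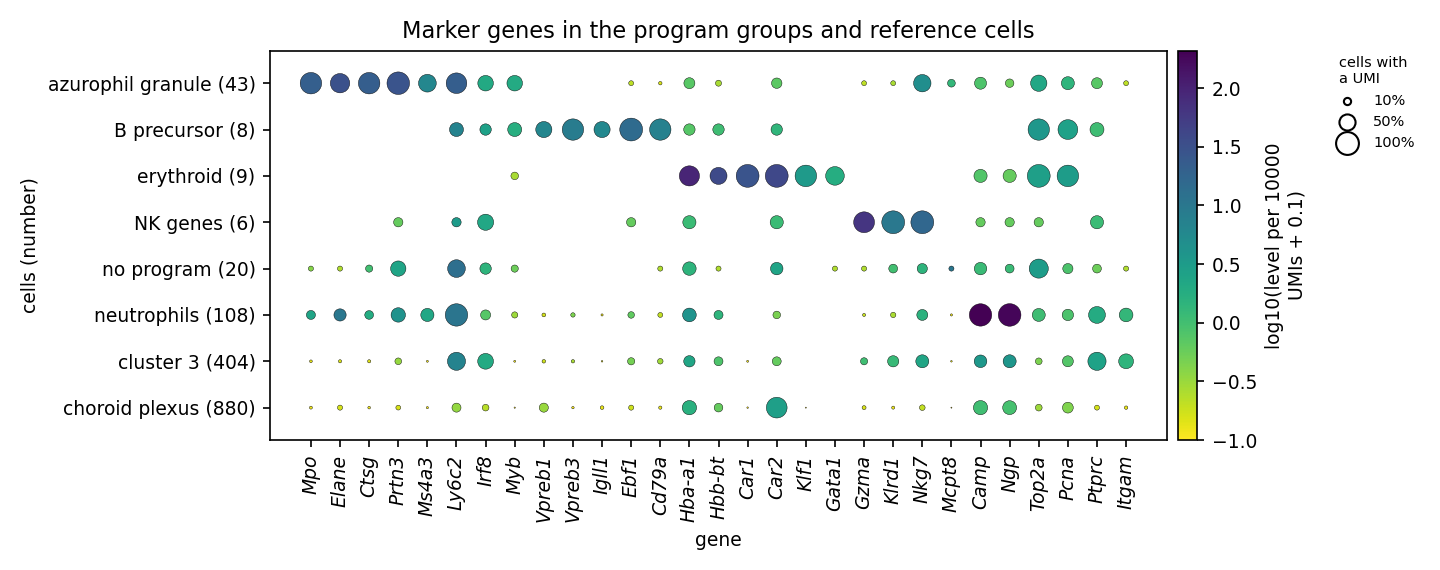
Level of marker genes (colour, log10 of UMIs per 10000 plus 0.1) and percent of cells with a UMI (dot area) in the program groups and in neutrophils, cluster 3 and choroid plexus cluster 1, with cell numbers in brackets. The azurophil, B and erythroid genes each filled 1 group of precursor cells, and Camp and Ngp filled the neutrophils.

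The azurophil cells carried almost all primary granule RNA of the precursor cells, namely 363 of 366 Mpo UMIs, 534 of 535 Elane UMIs and 372 of 379 Ctsg UMIs. Mpo was detected in 38 of the 43 cells with a median of 4 UMIs and a maximum of 37. Elane was detected in 31 cells, at up to 90 UMIs. Prtn3, which encodes proteinase 3, was detected in 42 cells at a level of 28.8, and Ms4a3, a gene of granulocyte and monocyte progenitors, in 26 cells at 5.90. The group thus ranged from cells with a few granule transcripts to cells with many of them, and the number of list genes per cell ran from 3 to 8 with a median of 5.

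Genes of the next granule stages were nearly missing from the azurophil cells. Camp, which encodes the antimicrobial protein cathelicidin, was at 0.752 against 208 in neutrophils, and Ngp, another specific granule gene, at 0.463 against 187. Both are genes of the selection limit, and cluster 1 had 0.946 and 0.853, so the residue was no higher than in cluster 1. Retnlg, which was not in the limit, was at 0.636 against 54.7 in neutrophils and 0.428 in cluster 1. Lcn2, which encodes lipocalin 2, was at 0.289 against 32.7. Mmp9 and Cxcr2, genes of the last stages, had no UMI in any precursor cell, where 3 UMIs would be a level of 0.0856. In neutrophils of the hashtag 1 brain they were at 1.99 and 0.16.

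Transcription factor genes differed in level between azurophil cells and neutrophils as well. Myb, a factor of proliferating progenitors, was detected in 20 of 43 azurophil cells at 1.91, against 0.205 in neutrophils. Cebpe, which drives the later granule genes, was at 0.405 in 4 azurophil cells against 1.95 in neutrophils. Ly6c2, a surface antigen gene of monocytes and their progenitors, was detected in 35 azurophil cells at 21.6, with 10.6 in neutrophils, and Irf8, a factor of the monocyte and dendritic lineages, in 20 cells at 1.97, with 0.655 in neutrophils. Other genes of the same list of 11 monocyte and dendritic cell precursor genes were lower in azurophil cells than in neutrophils, among them Csf1r (0.521 against 1.76), Ly86 (0.984 against 1.35) and Cx3cr1 (0.116 against 3.17). Of the azurophil cells 55.8% had 3 or more of the 11 genes, against 61.1% of neutrophils and 81.4% of cluster 3. Of 9 genes of stem and early progenitor cells, Hlf and Mecom had no UMI in the precursor cells, and 7 of 43 azurophil cells had 3 or more, 2.33% of them after thinning.

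Across the 87 precursor cells the genes most like Mpo, by Spearman correlation among 3684 genes detected in at least 10% of them, were Prtn3 (0.86), Ctsg (0.86), Elane (0.77), Ms4a3 (0.76) and Plac8 (0.72). The cells share 1 library and zeros of the same shallow cells, so these coefficients describe the grouping above. Plac8 is expressed by many myeloid progenitors. It was also the gene outside the lists with the largest difference from all other cells of the series, at 29.0 against 1.05. Most of those other cells were non-immune. Other immune cells carried Plac8 too, at 13.8 in cluster 3 and somewhat less in neutrophils. Among the precursor cells it was detected in 77 of 87 cells and in all 43 azurophil cells. The 34 cells with the azurophil program alone were also set against 18 precursor cells with another program alone. Of these, 5 had the B program and 13 the full erythroid list, which many reference cells met too. Clec12a (2.38 against 0), an inhibitory receptor of myeloid cells, was the gene outside the lists that differed most. Slpi (4.54 against 0.204), a protease inhibitor, Tmed3 (2.77 against 0.102) and Glipr1 (2.69 against 0.102) came next. Clec12a was at 2.20 in all azurophil cells and at 2.17 in neutrophils, so it did not set the group apart from neutrophils.

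The proximal promoters of Elane and Prtn3, neighbouring genes on chromosome 10, are shown because both RNAs marked this group, whose cells also carried RNA of the factor genes Myb and Spi1. Spi1, which encodes PU.1, was at 1.97 in azurophil cells and 2.87 in neutrophils. They are the 250 bases before each RefSeq gene start in GRCm38.p6, chr10:79886062-79886311 for Elane and chr10:79879417-79879666 for Prtn3, both on the plus strand. Capitals mark GAGGAA, a core read by PU.1, and AACGG, a core read by Myb, searched on both strands.
Elane: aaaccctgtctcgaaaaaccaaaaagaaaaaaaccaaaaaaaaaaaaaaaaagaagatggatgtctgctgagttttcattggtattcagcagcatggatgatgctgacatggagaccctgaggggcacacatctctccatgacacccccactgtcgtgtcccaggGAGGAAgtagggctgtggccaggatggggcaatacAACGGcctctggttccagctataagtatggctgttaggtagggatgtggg
Prtn3: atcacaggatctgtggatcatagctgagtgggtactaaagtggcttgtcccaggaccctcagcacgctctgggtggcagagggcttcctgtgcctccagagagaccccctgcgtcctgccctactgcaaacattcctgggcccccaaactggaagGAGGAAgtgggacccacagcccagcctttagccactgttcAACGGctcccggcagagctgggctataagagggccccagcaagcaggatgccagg
The PU.1 core began 85 bases before the start in Elane and 95 in Prtn3, and the Myb core 50 and 55 bases before it. Among 32851 mouse promoters of this length, 23.3% held GAGGAA and 14.5% held AACGG, so these matches describe the letters only. The same windows of Mpo and Ctsg held GAGGAA and no AACGG.

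The 8 B precursor cells all came from the hashtag 1 brain. Ebf1, a factor that sets the B lineage, was detected in all 8 at a level of 14.8, and Cd79a, which encodes a signalling chain of the B cell receptor, in 7 at 7.38. Vpreb3 was detected in 7 at 8.66. The surrogate light chain genes Vpreb1 and Igll1 were at 6.10 and 5.78, in the same 4 of the 8 cells. Vpreb1 was also seen in 140 cells of cluster 1, at 0.222, and after thinning in 6.25% of cluster 1 cells against 4 of the 8 B precursor cells. Dntt and Rag1, genes of receptor rearrangement, had no UMI in the 8 cells, where 3 UMIs would be 0.963.

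Genes of later B cells were present in part of the group. Ms4a1, which encodes the B cell protein CD20, was detected in 2 of the 8 cells and Ighd, a gene of mature B cells, in none, while Ighm, the heavy chain of the first receptor, was detected in all 8 at 9.95. Igkc, a light chain constant gene, was detected in 6 of the 8 cells at 37.9, with 84 of its 118 UMIs in 1 cell. In the 5 cells with the B program alone it differed most from other programs among genes outside the lists (45.1 against 0.386). Iglc2 (6.78 against 0, in 1 cell) and Ly6d (6.30 against 0.193, in 3 cells) came next. The genes most like Vpreb3 over the 87 cells were Cd79a (0.77), Ebf1 (0.74), Ighm (0.52), Cd79b (0.51) and Ptprcap (0.47). The 4 cells with Vpreb1 and Igll1 UMIs had CD45 tag counts of 345, 396, 448 and 2304, and the other 4 had 1886, 2243, 2949 and 4995. The lower tag counts were thus mostly in surrogate light chain cells, with overlap at 2304, and no test was made on groups of 4 cells from 1 brain.

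The 9 erythroid cells also came from the hashtag 1 brain alone. They held all 164 Car1 UMIs of the precursor cells (carbonic anhydrase 1, at 28.1), all 19 of Klf1 (at 3.26), and 10 of the 11 of Gata1. No UMI of Mpo, Elane or Ctsg was found in any of the 9. Hba-a1 was at 95.5, Hbb-bt at 37.1 and Hbb-bs at 84.4, and the 9 cells carried 557 of the 583 Hba-a1 UMIs. The genes outside the lists that differed most included genes of haem synthesis, among them Cpox (3.77 against 0.118 in the other programs) and Alad (3.77 against 0.236). Hemgn (3.77 against 0) and Fam132a (7.20 against 0.118) were also among the genes that differed most. Alas2, the erythroid enzyme of the first haem step, had no UMI, where 3 UMIs would be 0.515.

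The 9 cells were spread along the globin scale. Their Hba-a1 counts were 0, 0, 1, 2, 30, 81, 95, 124 and 224 UMIs. In the same order the cells had 7837, 11845, 7496, 8416, 6595, 5196, 4301, 3348 and 3275 UMIs in total. Every cell with 2 or fewer Hba-a1 UMIs was deeper than every cell with 30 or more. The CD45 tag counts in that order were 174, 347, 122, 92, 30, 63, 81, 41 and 73. The 4 cells with almost no globin had the 4 highest CD45 counts, and the other 5 had 30 to 81, where the non-immune median was 44. Total hashtag counts in the 9 cells had a median of 539 against 2316 in all precursor cells, and 3 of the 9 were under the 80% hashtag check. The part of tag uptake and of depth in this order was not tested.

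**Figure D3:**
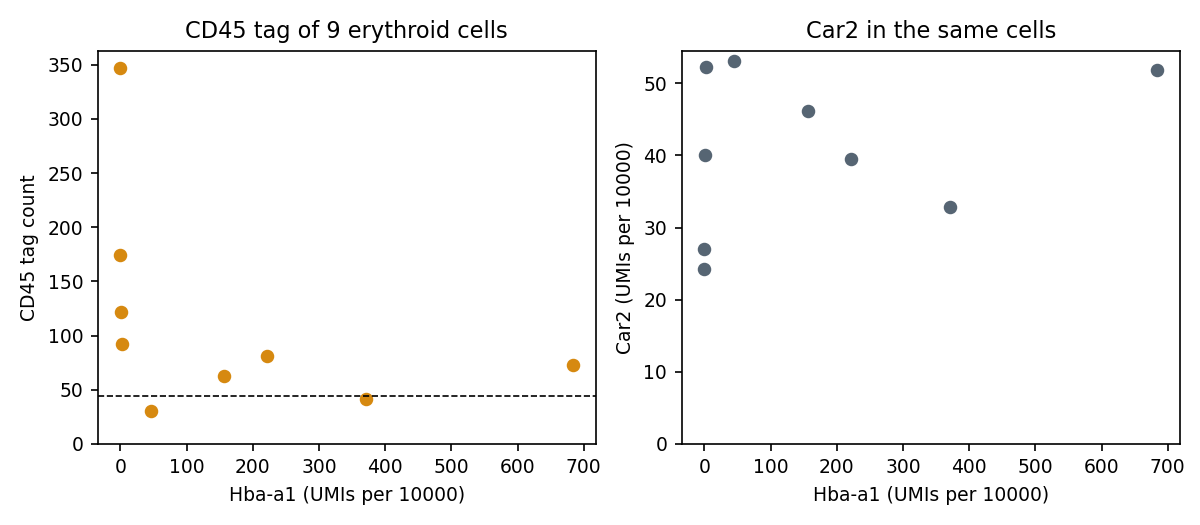
The 9 erythroid cells by Hba-a1 level (UMIs per 10000) against the CD45 tag count (left, dashed line at the non-immune median of 44) and against Car2 level (right). The 4 cells with 0 to 2 Hba-a1 UMIs had the highest CD45 counts, while Car2 was present in all 9.

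The alpha globin promoter is shown because Hba-a1 marked this group together with the factor gene Gata1. It is the 250 bases before the RefSeq start in GRCm38.p6, chr11:32283422-32283671 on the plus strand, and capitals mark GATAAG, a core read by GATA factors, searched on both strands.
Hba-a1: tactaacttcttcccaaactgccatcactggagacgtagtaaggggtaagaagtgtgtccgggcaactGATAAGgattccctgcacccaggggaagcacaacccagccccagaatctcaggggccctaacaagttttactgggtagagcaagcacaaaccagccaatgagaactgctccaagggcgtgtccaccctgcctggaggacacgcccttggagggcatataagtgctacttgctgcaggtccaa
The core began 182 bases before the start, and 6.55% of the 32851 promoters held it. A core read by EBF factors, CCCNNGGG with N any base, was searched as well and was in 11.8% of the promoters. The Hba-a1 window held it, 165 bases before the start, and the same window of Vpreb3 did not. These matches describe the letters only. The genes most like Hba-a1 over the 87 cells were Hba-a2 (0.52), Aqp1 (0.42), Glrx5 (0.42), Sri (0.41) and Mrps14 (0.40). The first coefficient was lower than those of the closest genes of Mpo and Vpreb3.

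The 27 remaining cells were 6 NK gene cells, 20 cells with no program and 1 cell with 2 programs. Of the 6 NK gene cells, 4 came from hashtag 3 and 1 each from hashtags 1 and 4. They held 125 of the 128 Gzma UMIs (granzyme A), and their levels of Nkg7 and Klrd1, genes of cytotoxic lymphocytes, were 16.5 and 9.81. The hashtag 1 cell of this group had no Gzma UMI and Ttr at 4227 per 10000. Of the 20 cells with no program, 8 had 5 or more Ly6c2 UMIs, and 1 cell of hashtag 4 carried 67 UMIs of Mcpt8, a basophil protease gene, with 56 of Cma1 and 67 of Gzmb. Another 15 Mcpt8 UMIs were in 1 azurophil cell. The 1 cell with 2 programs had 6 Vpreb3 and 7 Prtn3 UMIs.

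Genes of the cell cycle were detected in most of the precursor cells. With all cells thinned to 2495 UMIs, 47.1% had 3 or more of 12 S phase genes, against 18.5% of neutrophils, 4.21% of cluster 3 and 2.16% of cluster 1. Without thinning the values were 63.2%, 38.9%, 11.4% and 16.9%. For 12 G2M genes the thinned shares were 60.9%, 43.5%, 10.6% and 6.25%. By program, the thinned S shares were 51.2% in azurophil, 62.5% in B precursor and 88.9% in erythroid cells, 30.0% in cells with no program and 0 of 6 in NK gene cells, which at 3 counts allows a share of up to 50%. The summed S phase level ordered the groups alike, at 14.6 in azurophil, 20.5 in B precursor, 25.2 in erythroid, 9.28 in no-program and 4.65 in NK gene cells. The G2M list ordered the groups differently, with thinned shares of 88.9% in erythroid, 75% in B precursor, 75% in no-program, 53.5% in azurophil and 16.7% in NK gene cells. Its summed levels were 50.9, 61.9, 52.0, 29.5 and 15.0 in that order. Top2a, which encodes a topoisomerase of dividing cells, was detected in all 9 erythroid, 7 of 8 B precursor and 22 of 43 azurophil cells.

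**Figure D4:**
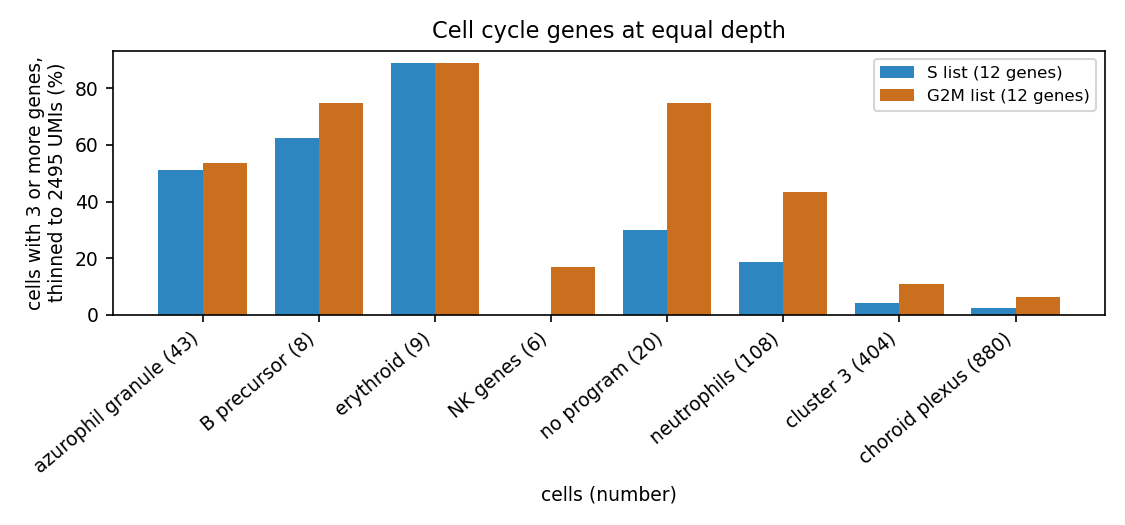
Percent of cells with 3 or more of 12 S phase or 12 G2M genes after thinning each cell to 2495 UMIs, by program group and in the reference cells, with cell numbers in brackets. Erythroid cells had the highest share for both lists (88.9%), and cluster 1 had 2.16% and 6.25%.

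Gene by gene, precursor cells and neutrophils were set side by side in the brains of hashtags 1 and 3, which had at least 5 cells of both kinds. A gene was called where log2(level + 0.1) differed by more than 1 in the same direction in both brains. Of 17551 genes, 168 were higher (0.957%) and 498 lower (2.84%) in the precursor cells. The limits that chose the cells used this contrast, so nothing is read from these counts. All 11 later granule genes were lower, with a median log2 difference of -5.27 against 0 for all genes. Camp, Ngp and Ltf of the selection limit are among the 11, so the choice of cells favoured this direction. In the hashtag 3 brain Mmp8, Mmp9 and Cxcr2 had no UMI in precursor cells, where 3 UMIs would be 1.66. Their neutrophil levels there were only 0.865, 0.433 and 0.433. Of the 8 azurophil genes, Ctsg and Cst7 were called higher. In the hashtag 3 brain the Ctsg UMIs were all 27 in the 1 azurophil cell, while Cst7 rested on 4 UMIs, 3 of them in NK gene cells. Mpo was higher in the hashtag 1 brain (11.1 against 1.83, log2 difference 2.53) but not past the limit in the hashtag 3 brain (7.73 against 5.19, 0.57), and Elane was at 16.0 against 17.2 there.

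The remaining lists gave few calls in that comparison. None of the 15 B precursor genes was called, and of 19 erythroid genes only Car2 was, with 4 of its 5 UMIs in the hashtag 3 brain in the cell that had Ttr at 3887. Of 12 S phase genes Tyms was called higher, and of 12 G2M genes Tubb4b and Tpx2. In the hashtag 3 brain Tyms rested on 1 UMI in the azurophil cell and 1 in an NK gene cell. Tpx2 rested there on 1 UMI, and Tubb4b on 1 in an NK gene cell and 4 in the cell that had Ttr at 3887. Of 9 microglia and macrophage genes 5 were lower (among them P2ry12, C1qa, C1qb and C1qc), with a summed level of 11.2 in precursor cells, 46.0 in neutrophils and 211 in cluster 3. In the hashtag 3 brain all 5 were in precursor cells at levels under 1.66, the level of 3 UMIs there. P2ry12 was at 0 against 0.144 in that brain, and C1qc at 0.553 against 2.16. Of 7 measured granulocyte factors, Cebpe was lower, at 0.553 against 1.44 in the hashtag 3 brain.

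The antibody tags were read from DNA barcodes, of which those that carry the next results are printed as the deposited barcode table gives them, in lower case throughout.
CD45: tggctatggagcaga
CD11b: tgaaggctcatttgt
HTO1: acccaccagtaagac
CD45 marks all nucleated blood cells other than maturing erythroid cells, CD11b (the product of Itgam) marks mature myeloid cells, and HTO1 is the barcode of hashtag 1.

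The CD45 tag of the precursor cells lay between that of neutrophils and that of non-immune cells. Its median count was 837, with a range of 30 to 7886, and by hashtag from 1 to 4 the medians were 723, 2574, 3957.5 and 2681.5. Neutrophils had a median of 4146, with 3909, 5590, 5613 and 3139.5 by hashtag, cluster 3 had 7090 and the non-immune clusters 44. In each of the 4 brains the precursor median was below the neutrophil median, although the brains of hashtags 2 and 4 had only 2 and 4 precursor cells. A count of 300 or more was reached by 70 of 87 precursor cells (80.5%), 97.2% of neutrophils, 99.8% of cluster 3 and 7.55% of non-immune cells.

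The programs differed widely in CD45. The 9 erythroid cells had a median of 81 (30 to 347), and the 17 precursor cells under 300 were 8 erythroid cells, 8 azurophil cells and 1 cell without a program. Those 8 azurophil cells had total hashtag counts of 167 to 681, against a median of 2688 in all azurophil cells. The cell without a program had 396. The part of tag uptake in these low CD45 counts was not tested. The azurophil cells had a median of 832 (64 to 5562), the B precursor cells 2064.5 (345 to 4995), the NK gene cells 3957.5 (1229 to 5388) and the cells without a program 1125. Within the hashtag 1 brain alone the medians were 798, 2064.5 and 81 for azurophil, B precursor and erythroid cells. That brain held 40 of the 43 azurophil cells and every B precursor and erythroid cell, so the order was seen in that brain only. The highest erythroid count, 347, was just above the lowest B precursor count, 345, and the azurophil range covered most of both. Ptprc RNA was at 0.571 in the precursor cells against 1.84 in neutrophils, with no UMI in the erythroid cells, where 3 UMIs would be 0.515.

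Over brains, the mean log2 tag count (with 1 added) was compared where both kinds had at least 5 cells, which left hashtags 1 and 3 and a smallest possible two-sided p of 0.5 in the exact permutation test of signs. CD45 in precursor cells minus neutrophils was -2.48 and -0.53 in these brains, with a mean of -1.51 (exact permutation p = 0.5, n = 2 brains). The difference from cluster 3 was -2.91 and -0.91 (mean -1.91, exact permutation p = 0.5), and that from non-immune cells was 3.79 and 5.96 (mean 4.87, exact permutation p = 0.5). The 2 brains pointed the same way in each comparison, but the design could not reach a threshold of 0.05. The hashtag 3 cells were 4 NK gene cells, 1 azurophil cell and 1 cell without a program that had Ttr at 3887, so the 2 brains did not compare the same kinds of cell. Of the 13 neutrophils of hashtag 3, 6 passed the 80% hashtag check, and with cells that passed it alone the mean difference from neutrophils was -1.61. Taken as a share of the counts of the 6 tags, CD45 was higher in precursor cells, by 0.84 against neutrophils and 0.64 against cluster 3 on the log2 scale, and by 1.3 against non-immune cells. The total in this share includes CD11b, whose median was 95 in precursor cells, 4689.5 in neutrophils and 5236 in cluster 3. A higher share is therefore not a higher CD45 count.

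The CD11b tag also differed between the precursor cells and neutrophils. Its median was 95 in the precursor cells, with 90, 74.5, 110.5 and 178.5 by hashtag, against 4689.5 in neutrophils, 5236 in cluster 3 and 41 in non-immune cells. The lowest neutrophil had 373 and the highest precursor cell 2649, so the ranges overlapped, but 69 of 87 precursor cells were below 300 and no neutrophil was. The difference was -5.18 and -5.24 in the brains of hashtags 1 and 3 (mean -5.21, exact permutation p = 0.5, n = 2 brains, smallest possible 0.5). As a share of the 6 tag counts the mean log2 difference was -2.60. By program the medians were 91 in azurophil, 161 in B precursor, 32 in erythroid and 103.5 in NK gene cells and 223 in cells with no program. Itgam RNA was at 0.0856 in the precursor cells and 1.23 in neutrophils.

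**Figure D5:**
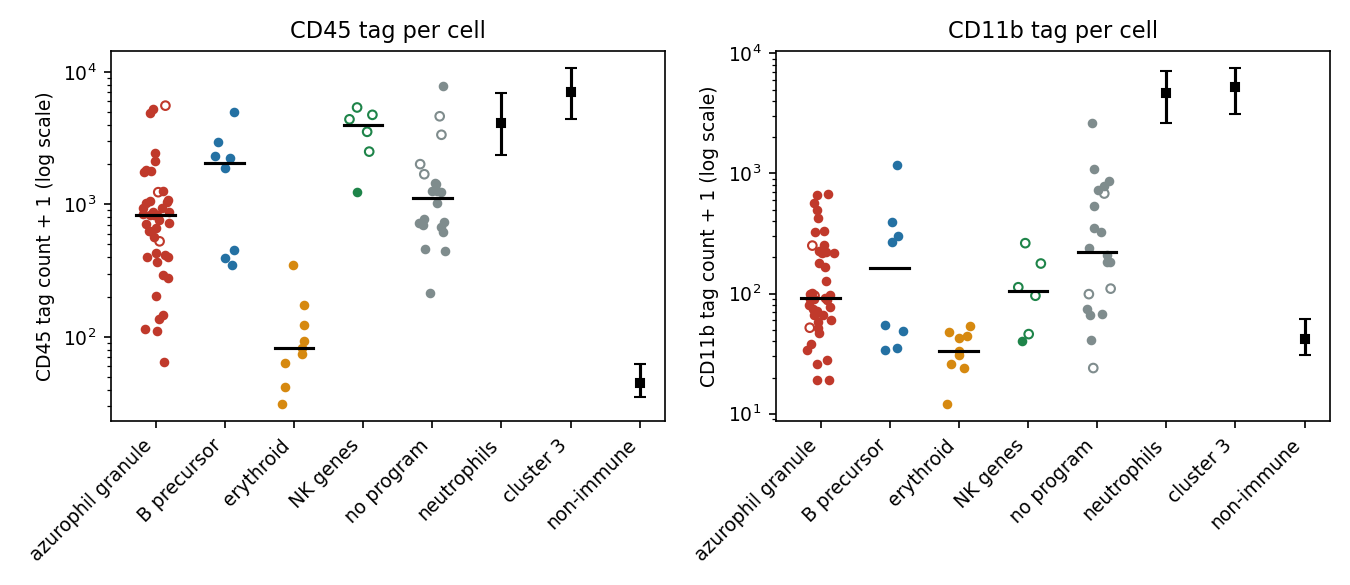
CD45 (left) and CD11b (right) tag count plus 1 per cell on a log scale, by program group; filled points are cells of hashtag 1, open points cells of other brains, black lines medians, and squares with bars the median and quartiles of the reference cells. Erythroid cells had medians of 81 for CD45 and 32 for CD11b, against 44 and 41 in non-immune cells. Azurophil cells had CD45 without neutrophil levels of CD11b.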

How the data were processed

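RNA, 6 antibody tags and 4 hashtags were measured in 1 pool of 4 brains by CITE-seq, a droplet method that counts RNA and barcoded antibodies in the same cell. Per the submitters' processing notes, Cell Ranger 2.1 and Seurat 2.3.4 were used with build mm10, and per the labels the tags were counted with CITE-seq-Count. Neither source states their roles or settings. The authors deposited expression as the natural log of 1 plus UMIs per 10000 of a cell, and tag, hashtag and UMI counts per cell. The authors' deposited clusters and hashtag calls were used as they stand. The authors also deposited the fraction of each cell's UMIs from mitochondrial genes, printed here as a percent. Filters on doublets or shallow cells are stated in neither source.

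UMIs were recovered from the natural log values and each cell's deposited UMI total: 99.8% of values came out whole within 0.01, and sums were within 10 of the totals. No cell was removed. A group's level is its summed UMIs per 10000 with an exact Poisson interval, shares have exact Clopper-Pearson 95% intervals, and both cover counting error only. Tags were compared over brains as mean log2(count + 1) by an exact permutation of signs. Gene calls (pseudocount 0.1, fold over 2 in every brain with 5 cells of both kinds) were tested on simulated data. The planned comparison over 4 brains could use 2. Brains are the replicates, and nothing in the labels ties a hashtag to a condition.

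The cells, gene lists (20 lists, 167 of 171 genes measured) and limits were chosen with earlier results of these data known. The genes named are the list genes, the 5 markers by brain, the genes outside the lists with 20 or more UMIs that differed most from all other cells or between programs, and the 5 genes most like Mpo, Vpreb3 and Hba-a1; the single cells with high Mcpt8 and the examples among these were chosen after their values were seen. Some list genes and genes named by this rule are not reported here. The program groups with the narrow erythroid list and NK genes were added after seeing the data. Alternatives changed the granule limit, T cell receptor limit, genes per program, depth, hashtag purity, pseudocount, fold and low-value filter, and left out each brain. Promoter sequences are from RefSeq (GRCm38.p6). Computation used Python 3.11.15, numpy 2.4.6, pandas 2.3.3 and scipy 1.17.1.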

Additional observations from a re-analysis of the deposited data

How the results depend on the processing

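Of 122 alternative values, 98 kept their direction or, where they had no test, moved little, although tag differences that kept their direction could change in size. The number of precursor cells stayed between 73 and 90. As a share of the 6 tag counts, a total that includes CD11b, the CD45 difference turned to 0.84 against neutrophils and 0.64 against cluster 3. Against non-immune cells the CD45 difference was 1.3 on that scale, and the CD11b difference from neutrophils -2.60. Without hashtag 1 the CD45 difference from neutrophils was -0.53. The azurophil share was 34.5% at 4 or more genes, and 25 to 53.1% when each brain was left out, the lowest without hashtag 1. The B precursor share was 0 to 11.1% when each brain was left out, 0 without hashtag 1. The erythroid share was 54.0% at 2 genes, 16.1% at 4 genes and 10.3% with the narrow list, which was added after seeing the data. The cause of these moves was not tested. Genes higher than in neutrophils numbered 13 with pseudocount 1, 6 at a fold of 4, 106 with at least 20 UMIs and 1165 in the hashtag 1 brain alone (added after seeing the data). Genes lower numbered 52, 57, 257 and 886. Without the hashtag 1 brain the levels of Mpo, Elane, Vpreb3 and Hba-a1 were 6.16, 7.76, 0 and 0.912. Elane moved from 12.2 to 17.1 between granule limits of 50 and 200.

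The comparisons of tags were made within brains, so cells were paired by brain, and no further block was fitted. With 75 of 87 cells in 1 brain, every gene level is mostly a level of that brain, and shallow cells leave low genes undetected at this depth.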
